A study of Drosophila melanogaster with 2 samples.

Results

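Expression of 6 endocytic receptor genes, *Cubn*, *Cubn2*, *Amnionless*, *mgl*, *LpR1* and *LpR2*, was measured by single-nucleus RNA-seq in dissected adult *Drosophila* nephrocyte preparations. The 6 genes were taken by name from the 15423 genes listed in the 2 deposited count matrices, and all 6 had reads in both matrices. The series holds 1 female and 1 male sample, both labelled as nephrocytes of adult flies aged 5 to 7 days that were kept at 18 °C. Both carried a *Dot-Gal4* driver and a nuclear GFP reporter (*UAS-GFP.nls*) in a *w1118* background, and neither carried a mutation under study or received a treatment. Tissue of pooled flies was dissected and dissociated, and nuclei were sorted on a DNA dye before droplet sequencing. No sample record is tied to either matrix and their columns name none, and a sex given in a matrix's name was not used. The matrix with 7890 nuclei is called the larger matrix and that with 5978 nuclei the smaller matrix, neither was assigned to a sex, and the sexes were not compared. Nothing in the labels says whether the nuclei of a matrix came from several cultures or collections, and each matrix was counted as 1 sample.

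Nephrocytes are the filtering cells of the insect body cavity. They strain the hemolymph through a slit diaphragm built by nephrin-type adhesion proteins and then take up the filtered protein by endocytosis, much as the vertebrate kidney divides this work between podocytes and proximal tubule cells. Cubilin, a large peripheral receptor, reaches the cell surface through the membrane protein amnionless and works in the vertebrate proximal tubule beside megalin, a giant receptor of the low density lipoprotein (LDL) receptor family. The lipophorin receptors belong to the same family and serve the uptake of neutral lipid from lipophorin, the lipoprotein that carries fat in insect hemolymph.

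*Cubn* encodes the fly cubilin, *Cubn2* a second cubilin-like protein, *Amnionless* the membrane partner, *mgl* (*megalin*) the fly megalin, and *LpR1* and *LpR2* the lipophorin receptors. In the FlyBase gene models *Cubn* and *mgl* lie on chromosome X with 8 genes between them, *Cubn2* lies on 3L, *Amnionless* on 2L, and *LpR1* and *LpR2* are direct neighbours on 3R. *Amnionless* overlaps another gene, *CG3625*, on the same strand, and *mgl* overlaps *CG44815*. How reads in such overlaps and in introns were assigned is not stated in the labels or methods.

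The larger matrix held 19107558 unique molecular identifiers (UMIs, 1 for each captured RNA molecule) and the smaller 18130609. A nucleus had a median of 1315 UMIs in the larger and 1481 UMIs in the smaller matrix, with a minimum of 500 in each, and 14 barcodes occurred in both. The nuclei were clustered without the 6 receptors, their partner genes and *sns*, and 21 groups of nuclei with at least 20 nuclei in each matrix (10 named from marker lists, 11 left unnamed) were compared. Levels are UMIs per 1000000 UMIs (CPM) of the summed nuclei, and intervals are exact 95% Poisson or binomial limits that cover counting error only. Differences between groups were tested on the sums with the quasi-likelihood test of edgeR with the matrix as a term, adjusted over all genes tested by the method of Benjamini and Hochberg. The classes were built from the same nuclei, though without these genes, and the p-values take the classes as given. Levels were not scaled by gene length, so those of different receptors are not compared with each other.

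The nuclei that carried nephrocyte markers were few and shallow. One cluster of 53 nuclei, 23 of the larger and 30 of the smaller matrix, had raised levels of all 5 nephrocyte markers that could be matched, *sns* (the fly nephrin), *kirre*, *Hand*, *pros* and *Klf15*, and is called nephrocyte-like. *Dot*, the gene whose driver marked the dissected cells, could not be matched to a row by its symbol. A nephrocyte-like nucleus had a median of 717 UMIs, and the nuclei of the cluster summed to 23333 UMIs in the larger and 26729 UMIs in the smaller matrix. The class was separated at the clustering resolution used here, whereas at a lower resolution, or with no gene left out of the clustering, all 53 nuclei joined 1 cluster of 242 or 231 nuclei that the same rule named female germline-like, and *Cubn* stood at 187 or 201 CPM there. In the clustering used here the class of that name is cluster 24, with 189 nuclei, whose markers conflict: 5 of 6 female germline markers (*vas*, *osk*, *otu*, *orb* and *aub*) were raised, but so were 7 of 9 spermatocyte markers and 4 of 7 markers of tubule principal cells, and it is called cluster 24 below.

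Both cubilin genes were high in the nephrocyte-like nuclei. *Cubn* had 30 UMIs in the larger matrix, or 1286 CPM (95% interval 867 to 1835), and 31 UMIs in the smaller, or 1160 CPM (788 to 1646), against 26.7 and 35.3 CPM in all other nuclei of the same matrices. *Cubn2* had 42 UMIs in the larger matrix, or 1800 CPM (1297 to 2433), and 53 UMIs in the smaller, or 1983 CPM (1485 to 2594), against 15.5 and 19.8 CPM in all other nuclei. For either gene the nephrocyte-like intervals of both matrices lay far above the level of the remaining nuclei. The ratio of nephrocyte-like to all other nuclei was 48.2 and 32.9 for *Cubn*, and 116 and 100.3 for *Cubn2*, in the larger and the smaller matrix.

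In the class comparison, in which a class is set against the mean of the other 20, 3 of the 6 receptors were higher and 2 lower in nephrocyte-like nuclei, where 5.45% of the 5776 genes tested were higher and 9.45% lower. *Cubn* was higher (log2 fold change 4.99, SE 0.355, adjusted p = 1.07e-12). *Cubn2* was higher as well (log2 fold change 6.50, SE 0.357, adjusted p = 1.82e-15). *Amnionless*, which carries cubilin to the membrane, was also called higher (5.04, SE 1.30, adjusted p = 0.00774), on 4 UMIs in all. The median log2 fold change over all genes tested was −0.97. That over the 6 receptors, 2.62, fell in the gap between *LpR1* and *Cubn* and describes none of them, since the 6 lay in opposite directions.

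The *Amnionless* value rested on few UMIs. There were 3 UMIs in the larger matrix, or 129 CPM (26.5 to 376), and 1 UMI in the smaller, or 37.4 CPM (0.947 to 208), against 2.52 and 4.86 CPM in all other nuclei. The ratio to the other nuclei was 51.1 (10.2 to 159) in the larger matrix and 7.70 (0.193 to 44.0) in the smaller, so that the smaller matrix by itself did not separate the nuclei.

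**Figure D1:**
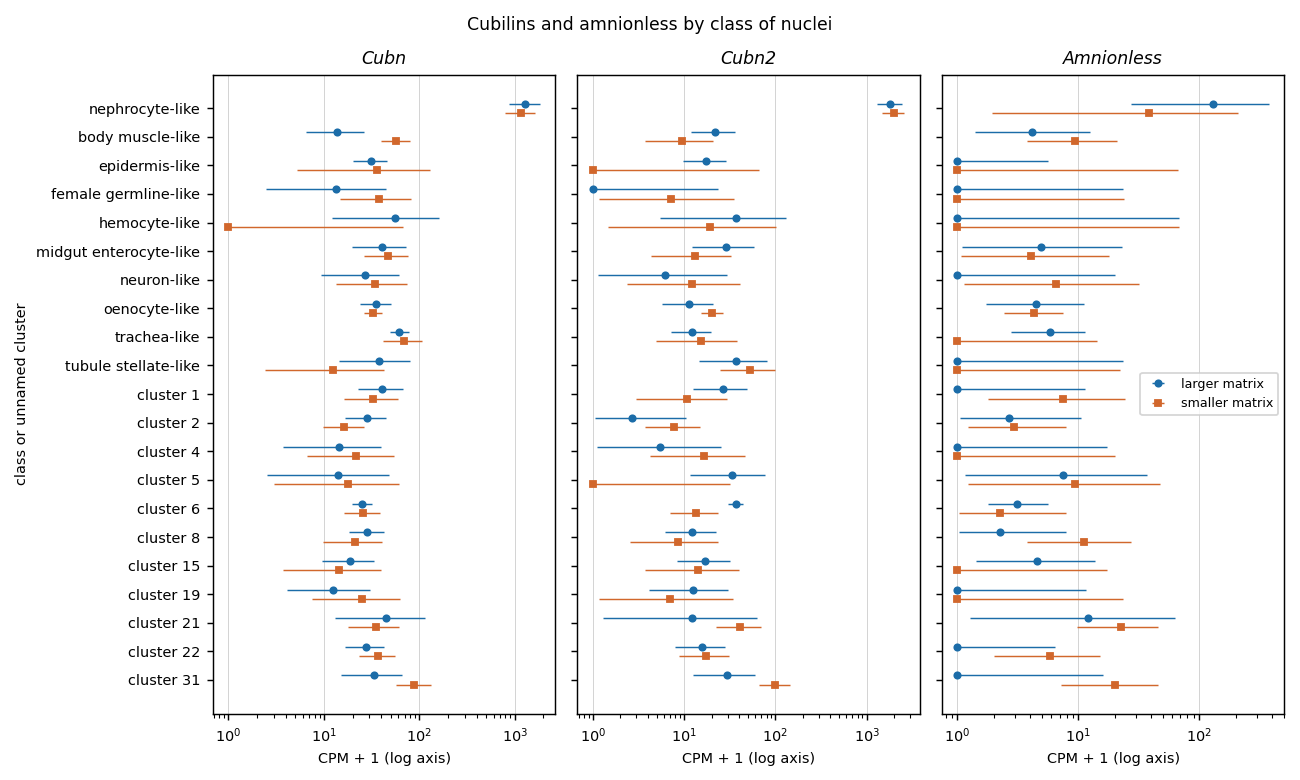
Levels of *Cubn*, *Cubn2* and *Amnionless* by class, as CPM plus 1 on a log axis, 1 point per matrix with exact 95% Poisson intervals, nephrocyte-like nuclei at the top and the other classes below, with cluster 24 under its rule-given name, female germline-like. Both cubilin genes sit above 1000 CPM in nephrocyte-like nuclei of either matrix, *Cubn* at 1286 and 1160 CPM and *Cubn2* at 1800 and 1983 CPM.

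The cubilin UMIs were spread over many nephrocyte-like nuclei and not carried by a single barcode. *Cubn* was seen in 14 of 23 nuclei of the larger and 11 of 30 nuclei of the smaller matrix, and the nucleus with most *Cubn* had 5 and 12 UMIs. *Cubn2* was seen in 11 and 15 nuclei, with at most 7 and 12 UMIs in a nucleus. In the smaller matrix *Cubn* stood at 727 CPM without the nucleus with the most UMIs, against 1160 CPM with it. Both cubilins were seen in the same nucleus in 7 and 5 cases, and *Cubn* and *sns* in 8 and 7, with *sns* seen in 15 and 20 nuclei. Whether these joint counts differ from those of genes detected independently was not tested.

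As a share of nuclei with at least 1 UMI, *Cubn* reached 47.2% (33.3 to 61.4) of nephrocyte-like nuclei, against 2.48% of hemocyte-like nuclei, the blood cells of the fly, whose median of 737 UMIs was close to that of the nephrocyte-like nuclei. In oenocyte-like nuclei, which were deeper at a median of 1999 UMIs, the share was 11%, or 1.50% when thinned to 500 UMIs. *Cubn2* reached 49.1%, against 2.48% of hemocyte-like nuclei. With every nucleus thinned the nephrocyte-like shares were 35.8% for *Cubn* and 41.5% for *Cubn2*, against 0.83% of hemocyte-like nuclei for either gene. *Amnionless* was seen in 7.55% of nephrocyte-like nuclei and in 0 of 121 hemocyte-like nuclei, where the 3 counts that a count of 0 allows give a share of up to 2.48% of nuclei with a UMI, which is no limit on nuclei that express the gene.

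Most cubilin UMIs nevertheless lay outside the nephrocyte-like nuclei, which held 5.57% and 4.63% of the *Cubn* UMIs and 12.5% and 12.9% of the *Cubn2* UMIs of the larger and the smaller matrix. The largest amounts were in deeply sequenced clusters. Cluster 11 held 24.3% of the *Cubn* UMIs of the larger matrix, and cluster 32 held 30.6% of those of the smaller. For *Cubn2* these were cluster 6 with 29.97% in the larger matrix, where 59 of its 101 UMIs were in 1 nucleus, and cluster 32 with 36.3% in the smaller. Some single nuclei with many cubilin UMIs also carried *sns*, and others did not. The nucleus with most *Cubn* in the smaller matrix had 35 *Cubn* and 100 *sns* UMIs. In the larger, 47 of the 56 *Cubn* UMIs of cluster 9, a trachea-like cluster, lay in 1 nucleus of 7589 UMIs. That nucleus had 3 *sns* UMIs, and the nucleus with 59 *Cubn2* UMIs had 1. Among nuclei with 0 *sns* UMIs, the most *Cubn* in a nucleus was 6 UMIs (larger matrix) and 15 UMIs (smaller). For *Cubn2* the most in such a nucleus was 18 UMIs (larger) and 15 UMIs (smaller).

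Among the other 20 classes no neighbouring pair was apart in *Cubn*. The next level below nephrocyte-like nuclei was 60.8 and 67.9 CPM in trachea-like nuclei, or 23.4 CPM in the larger matrix without its top nucleus, and the lowest was 12.9 and 16.8 CPM in cluster 5. Of the 20 pairs of neighbours in the order of the classes, 1 did not overlap between its matrices, the pair that sets nephrocyte-like nuclei off from the next class. *Cubn2* was called higher in cluster 31 (7 UMIs in the larger and 26 UMIs in the smaller matrix, 65.1 CPM over both, log2 fold change 1.97, SE 0.456, adjusted p = 0.00211), where 10.5% of genes were higher. Cluster 31, led by *Ret*, *Chs2* and *mmm*, also had *sns*, at 61.4 CPM in the larger and 415 CPM in the smaller matrix. *Amnionless* was called higher in cluster 21 (edgeR log2 fold change 3.03, SE 0.921, adjusted p = 0.0193), where 13.6% of genes were higher. That call rested on 1 UMI in the larger and 7 UMIs in the smaller matrix. In 6 classes there was no *Amnionless* UMI in either matrix. Outside the 21 classes, cluster 27, male accessory gland-like, held 15 of the 89 *Amnionless* UMIs of the smaller matrix. Its level was 48.0 CPM, against 37.4 CPM (1 UMI) in nephrocyte-like nuclei of that matrix. It had 1 nucleus in the larger matrix and 248 in the smaller, and its class was not tested.

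Megalin and the lipophorin receptor *LpR2* were lower in nephrocyte-like nuclei, and *LpR1* did not pass the test. *mgl* had 7 UMIs (300.0 CPM) in the larger and 10 UMIs (374 CPM) in the smaller matrix, against 2388 and 1365 CPM in all other nuclei, and was lower in the class comparison (log2 fold change −2.39, SE 0.394, adjusted p = 3.48e-05). *LpR2* had 4 UMIs (171 CPM) and 5 UMIs (187 CPM), against 2546 and 3531 CPM, and was lower too (−2.70, SE 0.561, adjusted p = 0.000701). *LpR1* had 2 UMIs (85.7 CPM) and 12 UMIs (449 CPM) against 856 and 1261 CPM (0.25, SE 0.808, adjusted p = 1.0), where the fold is against the mean of the other classes and the CPM beside it are of all other nuclei. Thinned to 500 UMIs, *mgl* was seen in 15.1% and *LpR2* in 11.3% of nephrocyte-like nuclei, against 44.0% and 39.05% of all nuclei.

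Partner genes were listed by role, 25 of 26 could be matched, and 22 of them were tested in the class comparison. In nephrocyte-like nuclei 9 of the 22 were higher and 2 lower, where 5.45% of all genes tested were higher and 9.45% lower. The part called lower was near the share over all genes. Of the slit diaphragm genes 4 of 5 were higher: *sns* (7.14), *Mec2*, a podocin-like gene (4.56), *kirre*, a Neph1 homolog (3.58), and *pyd*, the ZO-1 homolog (2.94). *sns* and *kirre* were among the genes that named the class, so their values are a description. They are also part of the counts of 9 of 22 and 4 of 5. *Mec2* and *pyd* were the diaphragm genes called higher that had no part in the naming. *rst*, the other Neph1 homolog, did not pass (−0.70, adjusted p = 0.963). Of the clathrin coat and dynamin genes tested 4 of 6 were higher, among them the adaptor subunit *AP-2alpha* (771 and 1309 CPM, log2 fold change 3.23, SE 0.260, adjusted p = 2.50e-11) and the heavy chain *Chc* (1.27, adjusted p = 0.0135). The cargo adaptor *ced-6* was higher as well (1286 and 973 CPM, 3.19, adjusted p = 1.03e-10). In the other direction, *LRP1*, another receptor of the LDL family, was lower at −2.54 (adjusted p = 0.000667), and *apolpp*, which encodes the lipophorin protein, was lower at −2.78 (adjusted p = 0.00105).

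**Figure D2:**
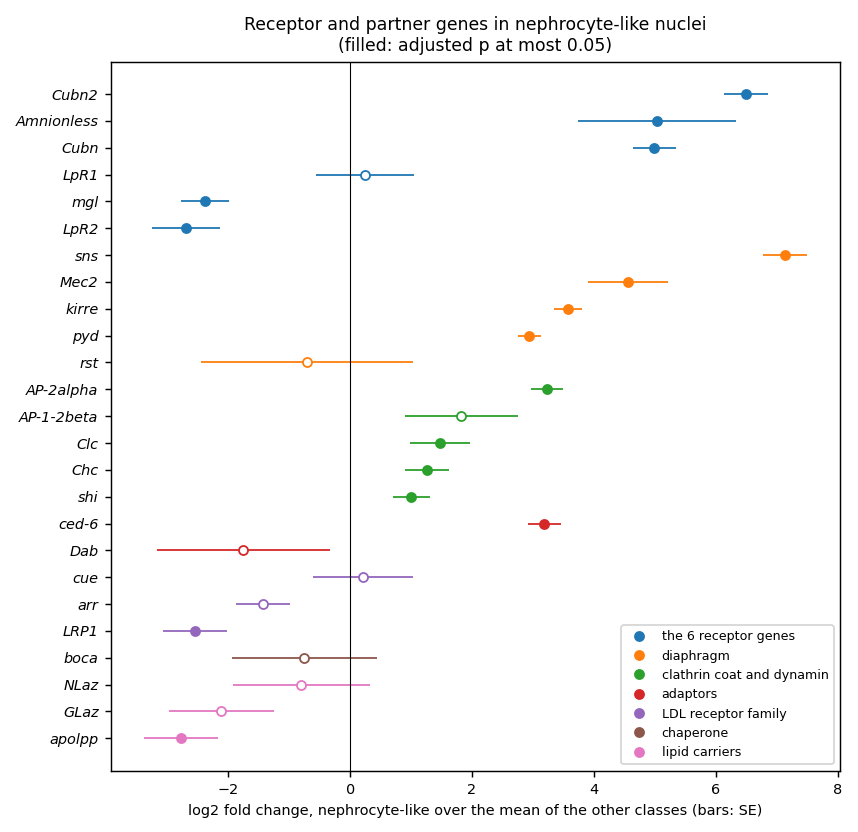
Log2 fold change with its standard error (derived from the test statistic) of the 6 receptors and their partner genes in nephrocyte-like nuclei against the mean of the other classes, by role, from edgeR. *Cubn* (4.99), *Cubn2* (6.50) and *Amnionless* (5.04) lie on the same side as the 4 slit diaphragm genes called higher, while *mgl* (−2.39) and *LpR2* (−2.70) lie on the other. Among those 4, *sns* and *kirre* were used to name the class.

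Nuclei were also divided by *sns* without regard to clusters. The larger matrix had 364 nuclei with *sns* and the smaller 249, 35 of them nephrocyte-like. Nuclei with *sns* were deeper, at a median of 3082.5 and 4606 UMIs, against 1283 and 1441 UMIs for nuclei without *sns*. The part of depth and of free RNA in the differences below was not tested beyond the thinned values given with them.

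Both cubilins were higher in nuclei with *sns*. *Cubn* had 81.8 CPM in the larger and 109.8 CPM in the smaller matrix in nuclei with *sns*, against 21.2 and 27.3 CPM in nuclei without (log2 fold change 1.94, SE 0.136, adjusted p = 3.78e-14). *Cubn2* had 66.8 and 120.2 CPM in nuclei with *sns*, against 11.2 and 9.74 CPM without (3.08, SE 0.176, adjusted p = 2.11e-16). *Amnionless* had 10 and 26 UMIs in nuclei with *sns*, or 4.55 and 12.3 CPM, against 41 and 63 UMIs, or 2.43 and 3.93 CPM, without (1.33, SE 0.373, adjusted p = 0.0343). In total 3 of the 6 receptors were higher and 2 lower, where 1.59% of the 10867 genes tested were higher and 1.72% lower. In the larger matrix 59 of the 147 *Cubn2* UMIs of nuclei with *sns* were in 1 nucleus, and without the nucleus with most *Cubn2* the log2 ratio between nuclei with and without *sns* was 1.84 there (3.52 in the smaller matrix), against 2.57 and 3.62 with it. For *Cubn* the ratio was 1.51 and 1.79 without the richest nucleus, against 1.95 and 2.01 with it. The fit rests on 2 matrices with 1 residual degree of freedom, and with no term for the matrix no gene passed (94 at an unadjusted p under 0.05).

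*LpR1* was lower in nuclei with *sns*, at 562 and 1049.7 CPM, against 893 and 1287 CPM without (−0.51, SE 0.0753, adjusted p = 7.17e-06). *LpR2* was lower by a small amount, at 2293 and 3113 CPM, against 2576 and 3581 CPM (−0.22, SE 0.0583, adjusted p = 0.0211), a call that DESeq2 did not make (adjusted p = 0.0702). For *mgl* the nuclei did not pass the test, at 2393 and 1253 CPM with *sns*, against 2385 and 1378 CPM without (−0.10, adjusted p = 0.590). Of the 23 partner genes tested 5 were higher, the diaphragm genes *rst*, *kirre* and *pyd* with *ced-6* and *AP-2alpha*. The lipid carriers *apolpp* and *Apoltp* were lower. Over all genes tested 1.59% were higher and 1.72% lower.

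The cubilin differences held outside the named class. With the nephrocyte-like nuclei left out, *Cubn* stood at 1.89 (edgeR, adjusted p = 4.84e-10) and *Cubn2* at 2.91, whereas *Amnionless* no longer passed (1.15, adjusted p = 0.154). Without the 5 clusters of deep nuclei the values were 2.75 for *Cubn*, 3.85 for *Cubn2* and 2.05 for *Amnionless*. Thinned to 500 UMIs, *Cubn* was seen in 4.89% of nuclei with *sns*, against 1.18% without, and *Cubn2* in 6.20%, against 0.59%. When the fit compared nuclei within a class and matrix, *Cubn*, *Cubn2* and *Amnionless* had too few counts to be tested, and *LpR1* (−0.29, adjusted p = 0.473) and *LpR2* (−0.51, adjusted p = 0.0944) did not pass.

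The levels were also given by the number of *sns* UMIs in a nucleus. In the larger matrix *Cubn* stood at 21.2, 37.3, 121 and 152 CPM in nuclei with 0, 1, 2 and at least 3 *sns* UMIs, and in the smaller at 27.3, 57.6, 61.8 and 293 CPM. *Cubn2* stood at 11.2, 60.8, 44.4 and 96.3 CPM in the larger and at 9.74, 63.0, 80.6 and 309.9 CPM in the smaller matrix. The highest grade held 81 and 57 nuclei, and most of these were not nephrocyte-like: outside that class 75 and 50 nuclei with at least 3 *sns* UMIs had *Cubn* at 129 and 290.1 CPM. Single nuclei set several of these values in the larger matrix. Of its 85 *Cubn* UMIs in the highest grade 47 were in 1 nucleus with 3 *sns* UMIs, and without it the level was 68.7 CPM, or 44.2 CPM outside the nephrocyte-like class. The level with 2 *sns* UMIs was 59.4 CPM without the nucleus that held 26 of its 49 *Cubn* UMIs. For *Cubn2*, 59 of the 75 UMIs in nuclei with 1 *sns* UMI were in 1 nucleus, and the level without it was 13.1 CPM. In the smaller matrix the highest grade stood at 226 CPM for *Cubn* and 275 CPM for *Cubn2* without the richest nucleus.

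**Figure D3:**
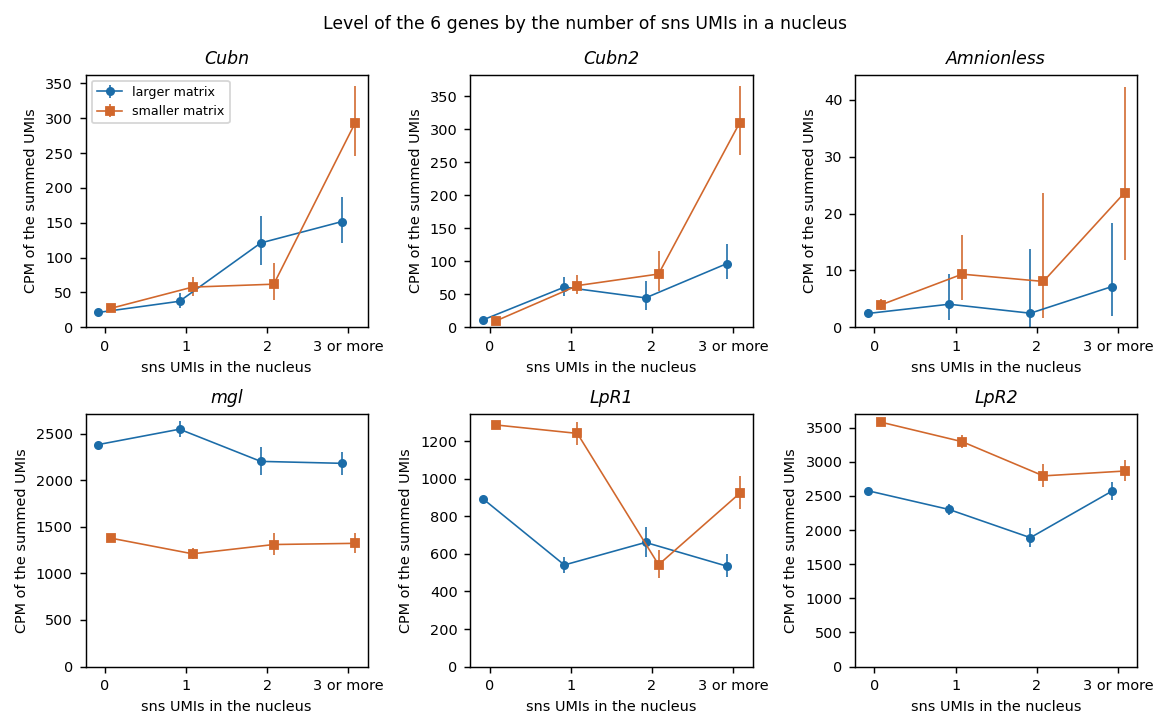
Levels of the 6 receptors in CPM by the number of *sns* UMIs in a nucleus (0, 1, 2 and at least 3), 1 line per matrix with exact 95% Poisson intervals, on linear axes that start at 0. *Cubn* ends at 152 and 293 CPM and *Cubn2* at 96.3 and 309.9 CPM in the highest grade (*Cubn* at 68.7 and 226 CPM without the richest nucleus), whereas *mgl*, at 2393 and 1253 CPM with *sns* and 2385 and 1378 CPM without, did not pass the test.

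*Cubn2* was also higher in nuclei with *Cubn* than in those without. There were 375 and 391 nuclei with *Cubn*, with a median of 3341 and 4620 UMIs, against 1281 and 1415 UMIs without. *Cubn2* had 60.2 CPM in the larger and 63.0 CPM in the smaller matrix in nuclei with *Cubn*, against 11.2 and 13.3 CPM without (log2 fold change 2.32, SE 0.137, adjusted p = 1.95e-59). Without the nucleus with most *Cubn2* in each matrix the log2 ratios were 1.72 and 2.11, against 2.43 and 2.24 with it. *mgl* was lower, at 1995 and 1218 CPM, against 2445 and 1397 CPM (−0.25, SE 0.0636, adjusted p = 0.00368). *Amnionless* (−0.06, adjusted p = 0.982), *LpR1* (0.08, adjusted p = 0.712) and *LpR2* (−0.17, adjusted p = 0.0870) did not pass, where 1.83% of genes were higher and 2.79% lower. Without the deep clusters *LpR1* passed (0.43, adjusted p = 0.0337), as did *LpR2* (−0.77), and *mgl* did not (adjusted p = 0.162). This fit also has 1 residual degree of freedom, and no gene passed with no term for the matrix (70 at an unadjusted p under 0.05). With matrix and class together as the block *Cubn2* and *Amnionless* were not among the genes tested, and none of *mgl*, *LpR1* and *LpR2* was called. *Cubn* and *Cubn2* were seen in the same nucleus in 38 nuclei of the larger and 54 of the smaller matrix, and *Amnionless* and *Cubn* in 5 and 16.

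*mgl* was not concentrated in one class but spread widely, with 45582 and 24725 UMIs in 5236 and 3361 nuclei. It was called higher in 7 of the 21 classes and lower in 5, and across the 126 pairs of a receptor and a class 21 were called higher and 13 lower, where 11.8% of all gene and class pairs were higher and 3.88% lower. The largest levels were 6576 and 5097 CPM in trachea-like nuclei (log2 fold change 2.21, SE 0.188, adjusted p = 8.53e-11, where 11.8% of genes were higher) and 5946 and 5362 CPM in cluster 8, led by *zye*, *CG13748* and *Cyp4aa1* (2.48, SE 0.182, adjusted p = 1.19e-12, where 18.2% were higher). Trachea are the air tubes of the fly and are lined by a cuticle-secreting epithelium.

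The trachea-like class differed in makeup between the matrices. In the larger matrix it held 306 nuclei of cluster 3, 354 of cluster 9, 206 of cluster 10 and 17 of cluster 37, and in the smaller matrix 2, 1, 260 and 26 nuclei of the same clusters. The name rests on unequal markers. Cluster 3 raised 3 of 7 trachea markers (*serp*, *verm* and *uif*) and cluster 10 also 3 (*btl*, *uif* and *vvl*). Cluster 9 raised 5 of 7, but also markers of several other lists, among them *sns* and *pros* of nephrocytes and *elav* and *fne* of neurons. Cluster 3 gave 5417 of the 8217 *mgl* UMIs of the class in the larger matrix, at 10981 CPM, and without it the class stood at 3703 and 5126 CPM. In cluster 10, the trachea-like cluster with many nuclei in both matrices, *mgl* had 6143 and 5526 CPM.

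Other classes were higher by less. Epidermis-like nuclei, of another cuticle-bearing epithelium, had 4074 and 2832 CPM of *mgl* (1.50, adjusted p = 1.29e-06, where 16.4% of genes were higher), and cluster 24 had 4133 and 2515 CPM (1.28, adjusted p = 2.75e-05, where 15.3% were higher). The remaining calls were unnamed clusters: cluster 15 at 2687 and 2807 CPM (1.34, where 19.2% of genes were higher), cluster 22 at 2662 and 2465 CPM (1.10, where 10.2% were higher) and cluster 21 at 2112 and 2426 CPM (0.91). Against the nuclei of the other 20 classes pooled, in place of the mean of the classes, the larger matrix by itself gave log2 ratios of −0.0059, −0.020 and −0.36 for clusters 15, 22 and 21. At the low end were tubule stellate-like nuclei at 595 and 229.6 CPM (−1.70, adjusted p = 7.44e-05, where 3.39% of genes were lower), cluster 1 at 574 and 209 CPM (where 5.66% were lower), cluster 4 at 508 and 299 CPM (where 5.42% were lower) and cluster 31 at 348 and 187 CPM (−2.21, adjusted p = 1.62e-06, where 3.34% were lower), beside the nephrocyte-like nuclei. The tubule stellate-like class, cluster 30, raised 3 of 7 markers of its list (*Drip*, *Prip* and *Lkr*), whereas *tsh*, *tio*, *SecCl* and *ClC-a* were not raised. Of the 20 neighbouring pairs in the order of the classes 6 were apart, with both matrix values of one class above both of the other. The leading pair, trachea-like and cluster 8, was not among them. In trachea-like nuclei 86.9% had an *mgl* UMI, or 78.7% when thinned to 500 UMIs. The call for the class of cluster 24 was lost with no gene left out of the clustering (0.40, adjusted p = 0.265).

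*LpR1* was concentrated in one class. Oenocyte-like nuclei, the fly's hepatocyte-like lipid-processing cells, had 13524 CPM in the larger and 7597 CPM in the smaller matrix (log2 fold change 6.22, SE 0.263, adjusted p = 1.46e-18), where 11% of genes were higher. The median class level was 149 CPM. Of 735 oenocyte-like nuclei 734 had an *LpR1* UMI, or 99.9%, and 96.9% when thinned. Clusters 23 and 26, both oenocyte-like, held 52.4% and 19.9% of the *LpR1* UMIs of the larger matrix and 37.9% and 42.7% of those of the smaller. *LpR1* was not among the genes used to cluster the nuclei. In the order of the classes 3 of 20 neighbouring pairs were apart, the first of them oenocyte-like nuclei and the next class, cluster 6.

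Other classes were low in *LpR1*. Cluster 2 at 308 and 562 CPM (1.81, SE 0.380, adjusted p = 0.000453, where 15.7% of genes were higher) and cluster 6 at 609 and 274 CPM (1.34, SE 0.388, adjusted p = 0.0235, where 8.10% were higher) were called higher. Cluster 5 was lower at 32.3 and 8.39 CPM (−3.12, SE 0.903, adjusted p = 0.0283, where 0.744% of genes were lower). The call of cluster 6 was not made by DESeq2 (adjusted p = 0.244). Against the nuclei of the other 20 classes pooled, which include the oenocyte-like nuclei, both clusters were below the rest in either matrix, with log2 ratios of −2.12 and −2.16 for cluster 2 and −1.31 and −3.18 for cluster 6. Of the 22 partner genes tested in oenocyte-like nuclei 4 were higher, *kirre* and the lipid carriers *Apoltp*, *apolpp* and *Mtp*, where 11% of all genes were higher. These calls were not particular to oenocyte-like nuclei. *Apoltp* and *apolpp* were also called higher in body muscle-like and neuron-like nuclei and in clusters 4 and 6. *Mtp* was also higher in clusters 4, 6 and 8, and *kirre* in body muscle-like and nephrocyte-like nuclei and cluster 4.

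*LpR2* was high in several classes. Cluster 4, led by *CG10910*, *Oatp33Ea* and *CG33346*, had 6905 and 8670 CPM (log2 fold change 3.58, SE 0.205, adjusted p = 9.57e-15, where 17.8% of genes were higher). It raised 6 of 9 midgut enterocyte markers (*Amy-p*, *betaTry*, *alphaTry*, *Mal-A1*, *Jon99Cii* and *yip7*) but stayed unnamed, since its 10 leading genes held markers of other lists (*fit* and *SecCl*) and none of these. Hemocyte-like nuclei had 5467 and 7252 CPM (2.89, SE 0.231, adjusted p = 1.63e-11, where 5.40% of genes were higher), and 88.4% of them had an *LpR2* UMI, or 79.3% when thinned. Body muscle-like nuclei had 2219 and 3675 CPM (1.93, where 14.2% of genes were higher), oenocyte-like nuclei 2099 and 3221 CPM (1.76), neuron-like nuclei 1530 and 2493 CPM (1.28, where 10.4% were higher) and cluster 6 2281 and 3463 CPM (1.82). Within the muscle-like class the values were unequal, since cluster 25 had 5351 and 7658 CPM, whereas cluster 12 had 508 and 446 CPM. Cluster 4 stood above hemocyte-like nuclei within either matrix, but its 6905 CPM in the larger matrix lay below their 7252 CPM in the smaller. Both classes lay above the next class, body muscle-like nuclei. At Leiden resolution 1 the oenocyte-like (edgeR, adjusted p = 0.133) and neuron-like (adjusted p = 0.440) calls were lost.

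It was called lower in 7 classes. Epidermis-like nuclei had 252 and 212 CPM (−1.67, adjusted p = 0.000785, where 9.44% of genes were lower), and midgut enterocyte-like nuclei had 288 and 486 CPM (−1.11, adjusted p = 0.0239, where 3.12% were lower). The others were cluster 24 (−1.32, where 4.47% of genes were lower), cluster 22 (−1.31, where 1.58% were lower), cluster 15 (−1.18, where 8.55% were lower) and cluster 1 (−1.01), beside the nephrocyte-like nuclei. The neighbouring gene *LpR1* had a correlation with *LpR2* of 0.41 over the 42 class sums, which share libraries and depth. Both lipophorin receptors were called higher in oenocyte-like nuclei and in cluster 6.

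**Figure D4:**
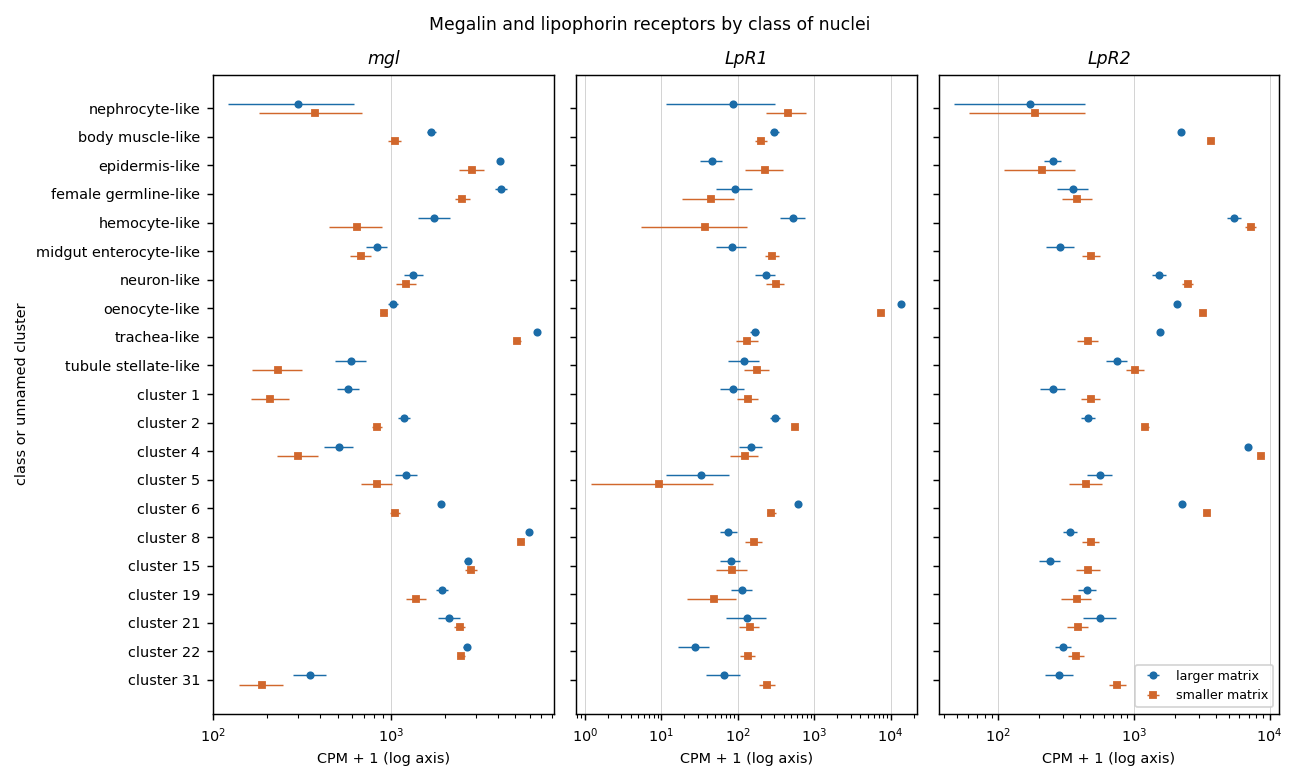
Levels of *mgl*, *LpR1* and *LpR2* by class, as CPM plus 1 on a log axis, 1 point per matrix with exact 95% Poisson intervals, nephrocyte-like nuclei at the top and cluster 24 as female germline-like. Among the classes shown, *LpR1* peaks in oenocyte-like nuclei (13524 and 7597 CPM) and *mgl* in trachea-like nuclei (6576 and 5097 CPM). *LpR2* peaks among them in cluster 4 (6905 and 8670 CPM). Clusters 20, 38 and 40, wholly or almost wholly of 1 matrix and not shown, had more *LpR2* (10874, 10344 and 12680 CPM).

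The genes whose levels were most like each receptor were named by correlation of log2 CPM over the 42 class sums, which share library and depth and are given as a description. *Cubn* was nearest to *CG33296* (r = 0.88), *Wdr62* (0.87) and *CG42327* (0.84), and its r with *Cubn2* was 0.82, but without the 2 nephrocyte-like sums these were 0.43, 0.36, 0.37 and 0.22. *Cubn2* was nearest to *CG33296* (0.92), *sns* (0.89) and *Trmt6* (0.87), with *sns* at 0.64 without the nephrocyte-like sums. *Amnionless* was nearest to the metallothionein *MtnE* (0.82). The likeness of *Cubn* and of *Amnionless* (*MtnE* at 0.34) was far weaker without the 2 nephrocyte-like sums.

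*mgl* was nearest to *sona* (0.91), *Msr-110* (0.89) and *pain* (0.87), and these stood at 0.90, 0.89 and 0.87 without the sums of its leading class. *LpR1* was nearest to *FASN3* (0.92) and *FASN2* (0.92), fatty acid synthases of the oenocytes, at 0.81 and 0.80 without the oenocyte-like sums. *LpR2* was nearest to *CG4822* (0.93), *apolpp* (0.92) and *CG32647* (0.91), with *apolpp* at 0.89 without its leading class. *apolpp* encodes the protein moiety of lipophorin, the particle that the receptor binds.

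Several clusters of a single matrix stood high in both genes. In cluster 20, with 973 nuclei and 4 of 8 fat body markers raised (*AkhR*, *fit*, *FASN1* and *Lsd-1*), *LpR2* stood at 10874 CPM and *apolpp* at 25319 CPM. Markers of other lists were raised there too. The cluster stayed unnamed, since its leading genes held *tj*, a follicle cell marker, and no fat body marker. Cluster 38 had 10344 CPM of *LpR2* and 18540 CPM of *apolpp*, and cluster 40, of the male accessory gland-like class and led by immune genes such as *BomBc3* and *BomBc1*, had 12680 CPM of *LpR2* and 11124 CPM of *apolpp*. Cluster 25 of the muscle-like class had *LpR2* at 5351 and 7658 CPM, with *apolpp* at 12783 and 10385 CPM. Clusters 20, 38 and 40 lay wholly or almost wholly in 1 matrix, so that matrix and cell type cannot be told apart for them.

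**Figure D5:**
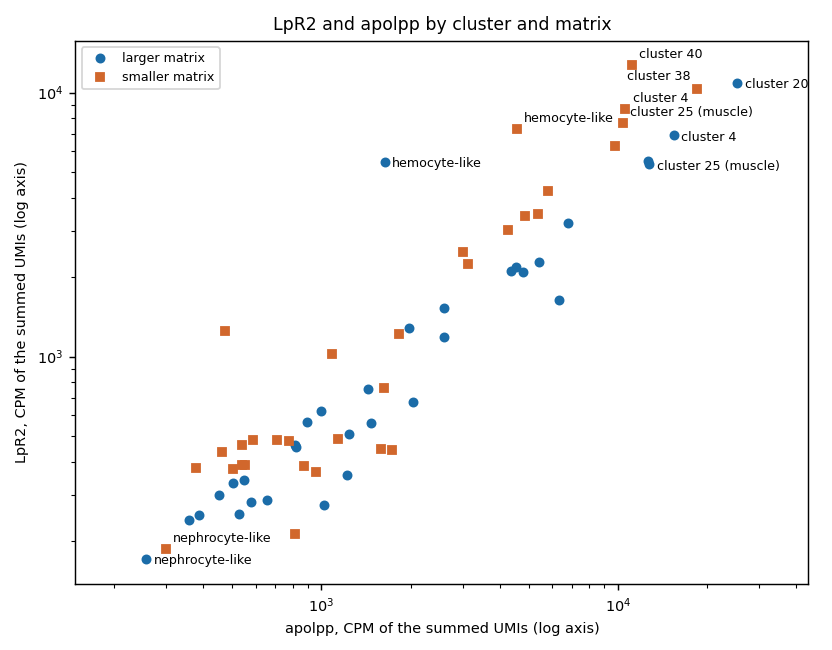
*LpR2* against *apolpp* in CPM on log axes, 1 point for each cluster in each matrix with at least 20 nuclei (65 points). Cluster 20, at 10874 CPM of *LpR2* and 25319 CPM of *apolpp*, stands high in both genes, and the nephrocyte-like sums (*LpR2* at 171 and 187 CPM) stand low in both.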

How the data were processed

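The authors dissected nephrocytes, sorted nuclei and sequenced droplet libraries, and the submitters' processing notes name FastQC, Cell Ranger and Seurat; versions, genome build and the counting of introns, strand and overlapping genes are not given in the sources that were used. Kit labels and published methods name different chemistry versions. The deposited matrices hold raw UMI counts per gene and nucleus, not normalized. The members and lists used here were chosen with earlier results of these data known.

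Genes found in fewer than 3 nuclei and barcodes with fewer than 200 genes were dropped, which left 13867 nuclei. Counts were scaled to 10000 per nucleus, logged, reduced to 2000 variable genes and 30 principal components, and clustered (15 neighbours, Leiden resolution 2) with scanpy 1.11.5, igraph 0.11.9 and Python 3.11.15, leaving out 31 genes (the receptors, their partners and *sns*). A marker was raised where its level was at least 3-fold that of all other nuclei, with its Poisson lower limit above them. A cluster took the name of the list, of 19, with the largest share of its markers raised, given at least 3 raised and no tie, and lost it where another list had more markers than the named one among its 10 leading genes. Of 147 marker symbols 140 matched. No doublet caller was run, and nuclei above the 99th percentile of UMIs were left out as an alternative. 68 genes had no symbol in the table used.

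Counts were summed per matrix and class, or per matrix and UMI status of *sns* or *Cubn*, and tested with the quasi-likelihood test of edgeR 4.0.16 in R 4.3.3 with the matrix as a term. The class test used 42 sums of 8771 nuclei with 20 residual degrees of freedom, and each status test had 1. An adjusted p of at most 0.05 was called, and DESeq2 1.42.0 was an alternative. The scripts were tested on simulated data. Likeness was Pearson's r of log2 of CPM plus 10 among genes with at least 200 UMIs, and the 3 most alike genes were named. Other named genes were the receptors, the listed partners and the genes leading an unnamed cluster that held the highest level of a receptor. The genes leading clusters 8, 31 and 40, and the markers given for clusters 3, 4, 9, 10, 20, 24 and 30, were chosen after their values were seen. The alternatives left out each matrix, the richest nucleus, the deep clusters or the filter, and changed the resolution, the depth (thinned to 500 UMIs), the threshold of UMIs and the model terms. Chosen after seeing the data were the alternatives with each cluster as its own level, without the nephrocyte-like nuclei or the deep clusters, without the richest nucleus of a number of *sns* UMIs and without cluster 3.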

Additional observations from a re-analysis of the deposited data

Results flagged for a closer look

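Among the status comparisons and the receptor and class pairs that were called, the larger and the smaller matrix moved in opposite directions in 6 cases, as log2 ratios of the summed levels, and these differences were not tested. For *mgl* in nuclei with *sns* against those without the larger matrix gave 0.0048 and the smaller −0.14. In nuclei with *Cubn* against those without, *Amnionless* gave −0.47 and 0.13, and *LpR1* −0.22 and 0.38. The same held for *mgl* against the pooled nuclei of the other classes in 3 cases, cluster 15 (−0.0059 and 0.998), cluster 21 (−0.36 and 0.79) and cluster 22 (−0.020 and 0.85).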

How the results depend on the processing

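The labels give no replicate numbers to the 2 matrices, so samples could not be paired by label. The matrix itself was the term in each fit, and in the status fits it pairs the 2 sums of a matrix. The nephrocyte-like class was a cluster of its own at Leiden resolution 2, and at resolution 1 or with no gene left out it gave no value; thinned to 500 UMIs, *Amnionless* could not be tested in it. With *sns* as status, the counts of genes called higher and lower (173 and 187) were 31 and 18 with DESeq2, 0 and 0 with no term for the matrix (94 at an unadjusted p under 0.05), 103 and 46 thinned to 500 UMIs, 16 and 13 with matrix and class as the block, and 305 higher without deep clusters. Of the receptors, 3 higher and 2 lower, there were 0 and 0 with no matrix term, 0 and 0 within classes, and 1 lower with DESeq2, with at least 2 UMIs and with at least 3 UMIs. With *Cubn* as status, counts of 199 and 304 were 92 and 163 with DESeq2, 108 higher with no filter, 0 and 0 with no matrix term (70 at an unadjusted p under 0.05), 200 lower without nuclei above the 99th percentile, 71 and 32 thinned, 2 and 4 within classes, 111 and 142 without nephrocyte-like nuclei, and 183 lower without deep clusters. The receptors, 1 higher and 1 lower, were 0 and 2 with DESeq2 (*Cubn2* had no adjusted p), 2 lower with no filter and without nuclei above the 99th percentile, 0 and 0 with no matrix term and within classes, 2 higher thinned and without deep clusters, and 0 lower with at least 3 UMIs. Within classes only *mgl*, *LpR1* and *LpR2* were tested, with *sns* or *Cubn* as status, so the 0 and 0 there do not cover the cubilins or *Amnionless*. The 13 receptor and class pairs called lower were 22 with no filter and 21 with each cluster as its own level.

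Without the richest nucleus in the smaller matrix, nephrocyte-like *Cubn* was 727 CPM (1160 with it) and *Amnionless* 0 CPM (37.4 with it). Thinned to 500 UMIs, the shares of nuclei with a UMI were 96.9% for *LpR1* in oenocyte-like nuclei, 79.3% for *LpR2* in hemocyte-like nuclei and 78.7% for *mgl* in trachea-like nuclei. Leaving out 1 matrix leaves a ratio to the pooled nuclei of the other classes in place of the mean of classes, and several values reversed there: *mgl* in cluster 15 (−0.0059 without the smaller matrix, 0.998 without the larger), cluster 21 (−0.36 and 0.79) and cluster 22 (−0.020 and 0.85), and *LpR1* in cluster 2 (−2.12 and −2.16) and cluster 6 (−1.31 and −3.18). The same ratio without the richest nucleus of each matrix was −2.13 for *LpR1* in cluster 2 and −2.29 in cluster 6.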
